A study of Mus musculus with 10 samples.

Results

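Growth factor receptors decide which signals a myeloid progenitor can receive, and 9 of their genes were followed here in murine leukaemia cells with reduced Meis1. The genes were Kit, Flt3, Il3ra, Csf2ra, Csf2rb, Csf2rb2, Csf3r, Csf1r and Il6ra. They were taken as every array probe set whose only platform symbol is one of those names, which gave 15 probe sets of 45037 in all, and 9 genes of 18193. A further probe set, 1450200_s_at, is assigned to both Csf2rb and Csf2rb2 and was kept apart. All 9 genes had at least 1 probe set of their own.

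The cells were line 4166, a murine leukaemia that carries the Mll-AF9 fusion, and both groups carry that fusion. The control group received an empty lentiviral vector (n = 5) and the other group a lentivirus with a short hairpin RNA against Meis1 (n = 5). Both were selected with puromycin, kept in IMDM with 15% serum and 2 ng/ml interleukin 3, and profiled 48 hours after transduction. The control vector held no hairpin, 1 cell line was used, and the labels do not say how many hairpins were tried or whether the samples of a group were separate cultures. The p-values below rest on the scatter among these 10 arrays, and part of that scatter may be technical. Control and shRNA samples of the same number form a pair, per the labels.

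Kit and Flt3 are receptor tyrosine kinases of one structural class with Csf1r, and each dimerises when its ligand binds. Stem cell factor binds Kit, the Flt3 ligand binds Flt3, and both receptors mark early blood progenitors, while Csf1r carries the signal for macrophage growth. Interleukin 3 and GM-CSF act through a specific alpha chain, Il3ra or Csf2ra, joined to a signalling beta chain. In the mouse the beta chain Csf2rb is shared between these cytokines, and its paralog Csf2rb2 serves interleukin 3 alone. Csf3r binds G-CSF and sustains neutrophil production, and Il6ra binds interleukin 6 and signals through the common chain gp130.

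Levels are linear probe set intensities (array medians 6.24 to 6.70), and changes are log2 differences, shRNA minus control. A change was called at an adjusted p under 0.05 by limma, fitted with the pair as a block. The main Meis1 probe set, 1450992_a_at, was lower in each shRNA array than in its partner, by 1.09 on the log2 scale on average (2.13-fold), and its groups did not overlap. The other Meis1 probe sets were near the array medians, at 7.33 and 5.34 in the controls, and did not pass. Some technical measures moved with the groups. The ratio of 3 prime to 5 prime control signal was higher by 0.09 (log2) with the shRNA, in each of the 5 pairs (p = 0.0625 in an exact permutation of signs, the lowest value 5 pairs can give). Bacterial RNAs of the kind added before labelling read higher by 0.81 and those of the kind added at hybridisation by 0.63 (log2), each in 4 of 5 pairs (exact permutation p = 0.125). Genes of early granules were bright in all arrays (Mpo at a mean log2 level of 13.40 in the controls), while genes of later granules differed, with Ltf and Camp near background at 2.19 and 2.30 and Lcn2 at 7.38. Lymphoid markers were dim, with 0 of 13 above a mean log2 level of 5.

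Kit fell in the cells with the Meis1 shRNA, by about the same amount in both of its probe sets, and no other receptor gene was called lower. Probe set 1452514_a_at (Entrez gene 16590) read 274.2, 239.7, 342.7, 436.5 and 556.3 in control samples 1 to 5. Their shRNA partners read 168.1, 127.6, 200.3, 258.6 and 332.9. Each shRNA array was lower than its own partner, although the groups overlapped, since shRNA sample 5 was above control samples 1 and 2. The means were 370 ± 128 (SD, n = 5) and 218 ± 80.4 (SD, n = 5). The change was -0.78 (SE 0.08, 95% interval -0.97 to -0.59, limma adjusted p = 0.00237), a level 1.71-fold lower. The pair differences were -0.71, -0.91, -0.77, -0.76 and -0.74, so they varied far less (SD 0.08) than the Kit level did between control arrays (log2 SD 0.49). RNA was measured in bulk, and fewer cells that express a gene cannot be told apart from less RNA in each cell.

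The other Kit probe set, 1415900_a_at, was dimmer and gave the same direction. Control samples 1 to 5 read 41.37, 37.11, 53.58, 34.67 and 80.67, and their partners 17.3, 16.44, 32.47, 24.2 and 45.42. All 5 shRNA values were below their partners, and the groups overlapped here too. The change was -0.90 (SE 0.12, 95% interval -1.18 to -0.62, adjusted p = 0.00764 by limma), with pair differences from -1.26 to -0.52. The changes of both Kit probe sets differed from each other by 0.12 ± 0.30 on average (SD over 5 pairs, exact sign-flip permutation p = 0.4375).

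These 2 Kit probe sets were the only ones called among the 15, against 1.96% of all probe sets called lower, 0.522% called higher and 2.48% called in either direction. Both have a mean log2 level above 5. Among all probe sets above that level, fitted alone, 13.3% were called lower and 4.84% higher, and both Kit probe sets were called there too. Of all calls over probe sets, 78.9% were lower, or 65.0% after quantile normalization and 85.0% with arrays centred on their medians. Both Kit probe sets passed with any 1 pair left out. Without the block their adjusted p was 0.218 and 0.179 by limma, with the same change. With a covariate beside the block (the 3 prime to 5 prime ratio, the RNAs added before labelling, or those added at hybridisation), the change of 1452514_a_at was -0.80, -0.75 and -0.74, and it did not pass (adjusted p = 0.385, 0.182 and 0.173 by limma). Meis1 itself did not pass in those fits either (-0.98, -1.01 and -1.11, adjusted p = 0.186, 0.0686 and 0.0724 by limma over genes). In pair 5, where those 3 measures differed least (0.01, -0.14 and -0.11), the Kit difference was -0.74 in 1452514_a_at and -0.83 in 1415900_a_at. The Trpn control probe sets, a background measure, differed most in that pair (0.18). That is 1 pair, picked after its values were seen, and the part of these measures in the Kit change was not tested.

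**Figure D1:**
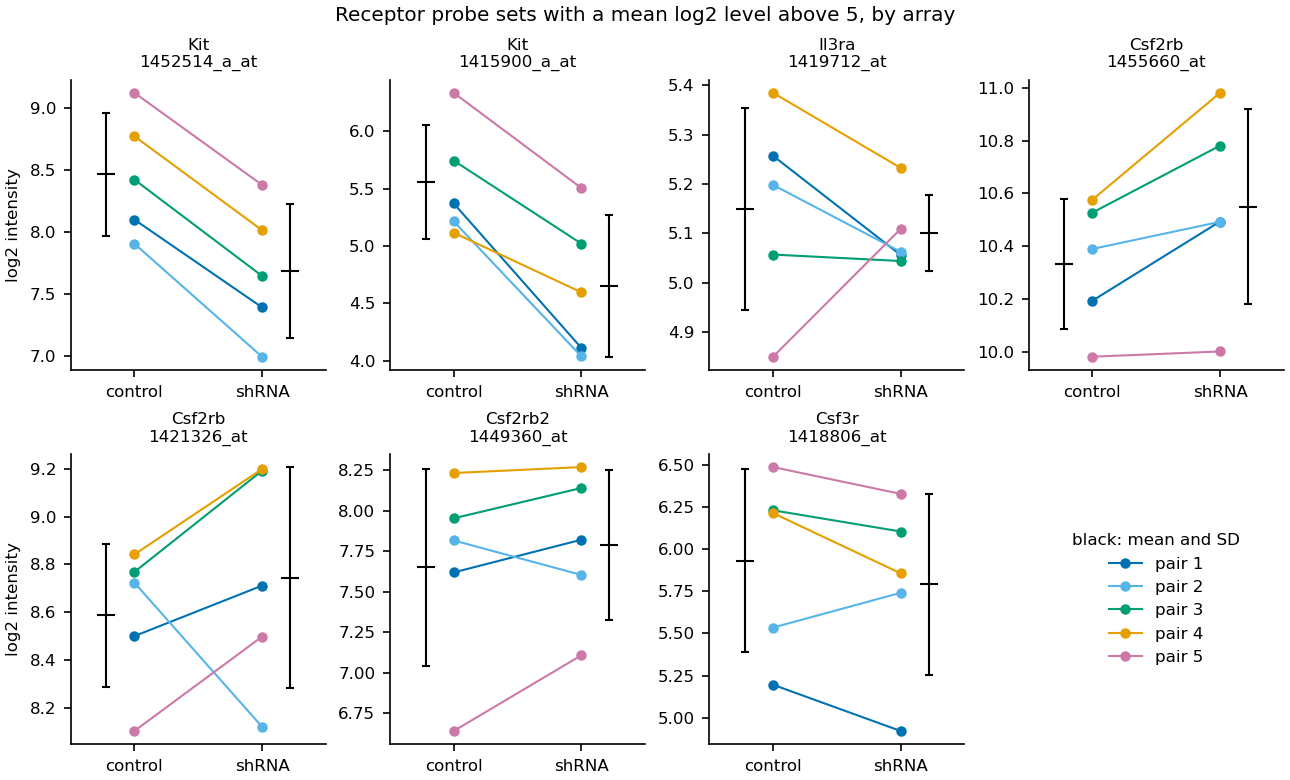
Log2 intensity (vertical axis, a separate scale in each panel) of the 7 brighter receptor probe sets (mean log2 level over 5), in control and Meis1 shRNA arrays. Each coloured line joins the arrays of 1 pair and the black bars give the mean and SD of 5 arrays. The lines of both Kit probe sets all slope down, while those of the other receptors cross or slope both ways, apart from Csf2rb 1455660_at.

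The bases before the start of Kit and Flt3 are shown because Kit was called and its relative Flt3 was not. They are RefSeq sequences of GRCm38.p6, 250 bases each, read 5′ to 3′ on the strand of the gene, which is plus for Kit (chr5:75574737-75574986) and minus for Flt3 (chr5:147400490-147400739).
Kit: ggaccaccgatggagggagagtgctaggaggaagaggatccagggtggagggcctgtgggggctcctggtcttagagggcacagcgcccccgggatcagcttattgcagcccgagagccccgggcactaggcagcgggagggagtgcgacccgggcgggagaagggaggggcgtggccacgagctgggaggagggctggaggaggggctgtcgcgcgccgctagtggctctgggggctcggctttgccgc
Flt3: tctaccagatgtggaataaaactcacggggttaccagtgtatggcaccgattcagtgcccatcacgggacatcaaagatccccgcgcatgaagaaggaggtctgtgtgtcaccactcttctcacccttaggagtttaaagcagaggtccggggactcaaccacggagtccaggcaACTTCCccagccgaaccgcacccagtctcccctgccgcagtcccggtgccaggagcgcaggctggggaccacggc
Both strands were searched for 5 motifs, and matches are in capitals. The core of Meis proteins was searched as TGACAG, and that of Hox with Pbx as TGATNNAT. Runx factors were searched as TGTGGT. The letters for Ets factors were GGAAGT. Those for Gata factors were AGATAA. The Kit window held none of them. The Flt3 window held the Ets motif alone, in reverse, at bases -75 to -70 before the start, and it overlapped no other motif. Over all 32851 windows of this length in the table, 15.9% held the Meis motif, 7.68% the Hox with Pbx motif, 14.0% the Runx motif, 19.7% the Ets motif and 9.99% the Gata motif. No match says only that these letters are not in this window. Of the 9 genes, 7 had an entry, and Csf2rb and Csf1r are named only. Of those 7 windows, 0 held the Meis motif, Il3ra held 1 Ets motif and Il6ra 2, and Il6ra held the 1 Gata motif.

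Flt3 was not called, and its pairs went both ways. Probe set 1419538_at (Entrez gene 14255) read 21.04, 34.01, 17.55, 23.83 and 18.58 in control samples 1 to 5 and 19.09, 17.67, 13.19, 27.12 and 19.07 in their partners. Pairs 1 to 3 were lower with the shRNA and pairs 4 and 5 higher, and the groups overlapped almost entirely. The change was -0.25 (SE 0.16, 95% interval -0.61 to 0.10, adjusted p = 0.520 by limma), so both 0 and a change of -0.61 lie within the interval. Most of the mean came from pair 2, at -0.94, and without that pair the change was -0.08. Kit went lower than Flt3 in 4 of 5 pairs, by 0.52 ± 0.38 on the log2 scale (SD, exact sign-flip permutation p = 0.125, or 0.15 adjusted over 12 such comparisons).

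The chains of the interleukin 3 receptor, the cytokine in which the cells were grown, were all measured well above the array medians, and none was called. Il3ra (1419712_at, Entrez gene 16188), the alpha chain that binds interleukin 3, read 38.24, 36.71, 33.29, 41.78 and 28.84 in the controls and 33.27, 33.42, 32.99, 37.6 and 34.51 with the shRNA. It was the steadiest of the brighter receptors, with a log2 SD of 0.20 over the controls and 0.08 over the shRNA arrays. Its change was -0.05 (95% interval -0.27 to 0.17, adjusted p = 0.883 by limma), and it was 0.09 after quantile normalization.

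The beta chains leaned higher with the shRNA without passing. Csf2rb (1455660_at, Entrez gene 12983), the shared signalling chain, read 1172, 1342, 1476, 1527 and 1012 in control samples 1 to 5 and 1442, 1441, 1759, 2020 and 1026 in their partners. All 5 pairs were higher, by 0.30, 0.10, 0.25, 0.40 and 0.02. The change was 0.22 (SE 0.09, 95% interval 0.01 to 0.42, unadjusted p = 0.0440, adjusted p = 0.319 by limma), a level 1.16-fold higher. Over genes it was 0.235 adjusted, or 0.0339 by limma with trend and robust eBayes. Adding the 3 prime to 5 prime ratio to the fit left a change of 0.01. The other Csf2rb probe set, 1421326_at, ran from 275 to 458.8 in the controls and from 278.4 to 587.7 with the shRNA, was higher in 4 of 5 pairs and changed by 0.16 (95% interval -0.19 to 0.50, adjusted p = 0.717). Pair 2 went the other way there, by -0.60, and without that pair the change was 0.35 (adjusted p = 0.179 by limma).

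Csf2rb2 (1449360_at, Entrez gene 12984), the beta chain used by interleukin 3 alone, read 196.5, 225.3, 247.7, 300.7 and 99.68 in the controls and 226, 194.4, 282, 308.4 and 137.8 with the shRNA. Pair 5 was the lowest in both groups, and 4 of 5 pairs were higher with the shRNA. The change was 0.14 (95% interval -0.11 to 0.38, adjusted p = 0.648 by limma). The probe set assigned to both paralogs, 1450200_s_at, changed by 0.20 (95% interval -0.10 to 0.50, adjusted p = 0.553 by limma), higher in 4 of 5 pairs. Csf2rb and Csf2rb2 are close paralogs, and probes of one may read the other. Their changes differed from each other by 0.08 ± 0.32 (SD over 5 pairs, exact permutation p = 0.625).

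Csf2ra, the alpha chain that binds GM-CSF, was at the level of the array medians in both groups. Its 2 probe sets ran from 4.199 to 7.833 in the controls and from 5.165 to 8.515 with the shRNA. At such levels low expression and none cannot be told apart, and a decrease could hardly be seen. The changes were 0.26 for 1420703_at (95% interval -0.05 to 0.56, adjusted p = 0.435) and 0.09 for 1420704_at (95% interval -0.23 to 0.40, adjusted p = 0.849 by limma). 

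Csf3r, the G-CSF receptor, was not called. Probe set 1418806_at (Entrez gene 12986) read 36.65, 46.37, 75.1, 74.23 and 89.7 in the controls and 30.31, 53.5, 68.83, 57.96 and 80.35 with the shRNA. Pairs 1 and 2 were the lowest in both groups, and 4 of 5 pairs were lower with the shRNA. The change was -0.14 (SE 0.10, 95% interval -0.37 to 0.09, adjusted p = 0.605 by limma), or 0.03 once the 3 prime to 5 prime ratio was added to the fit. Of 13 measured neutrophil markers, 1 was higher (Lcn2, 1.07, adjusted p = 0.00320) and 1 lower (Elane, -0.40, adjusted p = 0.0338 by limma over genes), both named after their values were seen, beside 1.08% of all genes called higher and 2.98% called lower. The Elane call was lost with each pair left out in turn (up to 0.132). The Lcn2 call held with each pair left out and was lost without the block (adjusted p = 0.394), with the random block (0.259) and with each technical covariate (0.484, 0.165 and 0.200 by limma). The summed level of that list was 14.37 to 15.23 (log2) in the controls and 14.19 to 15.04 with the shRNA.

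Csf1r, the macrophage growth factor receptor, had 3 dim probe sets, and none was called. Its brightest, 1423593_a_at (Entrez gene 12978), ran from 8.602 to 15.16 in the controls and from 12.6 to 14.79 with the shRNA, a change of 0.18 (95% interval -0.09 to 0.45, adjusted p = 0.559 by limma). Most of that came from pair 1, whose control was the lowest array, and the change was 0.05 without that pair. The other probe sets, 1419872_at and 1419873_s_at, were close to the array medians and changed by 0.07 and 0.10. Of 13 measured monocyte and macrophage markers, 2 were higher (Adgre1, 0.65, adjusted p = 0.0207, and Lyz2, 0.79, adjusted p = 0.0349 by limma over genes) and 0 lower, also named after their values were seen, against the same 1.08% and 2.98% of all genes. Leaving out pair 1, 2, 3 or 4 ended both calls (adjusted p up to 0.0912 and 0.147). So did dropping the block (0.401 and 0.488) and adding the 3 prime to 5 prime ratio (0.781 and 0.892 by limma). With that ratio the changes were 0.51 and 0.30. The summed level of the list was 9.44 to 10.76 (log2) in the controls and 9.93 to 10.66 with the shRNA.

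Il6ra, the interleukin 6 receptor, was dim, and its probe sets disagreed. Probe set 1452416_at (Entrez gene 16194) read 10.92, 9.966, 9.734, 7.735 and 15.82 in the controls and 14.29, 12.79, 13.77, 11.88 and 18.32 with the shRNA. All 5 pairs were higher, although the groups overlapped. The change was 0.42 (SE 0.09, 95% interval 0.21 to 0.62), 1.33-fold, with an adjusted p of 0.0554 over all probe sets and of 0.0373 over genes by limma. In the other probe set, 1422270_a_at, the change was -0.03 (95% interval -0.26 to 0.19) with 3 of 5 pairs lower. The difference between these changes was 0.45 ± 0.20 (SD), in the same direction in 5 of 5 pairs (exact permutation p = 0.0625). As the mean of both probe sets Il6ra changed by 0.19 (adjusted p = 0.233 by limma). In the fit over genes the call was lost when pair 1, 2, 3 or 4 was left out (up to 0.146) or with trend and robust eBayes (0.0750), and its change was 0.22 once the 3 prime to 5 prime ratio was added.

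**Figure D2:**
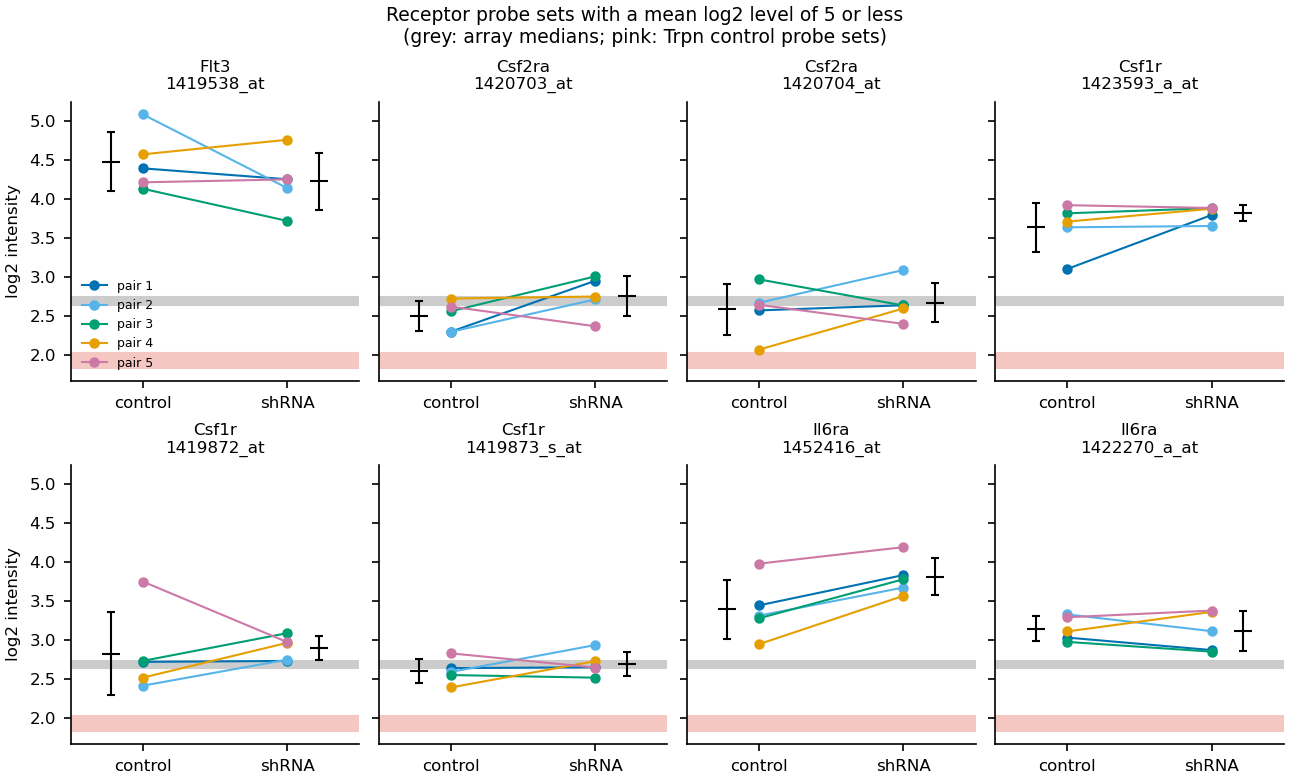
Log2 intensity of the 8 receptor probe sets with a mean log2 level of 5 or less, on 1 shared vertical scale, in control and Meis1 shRNA arrays. Lines join pairs, black bars give the mean and SD of 5 arrays, the grey band spans the array medians (2.64 to 2.74) and the pink band the means of the Trpn control probe sets (1.83 to 2.03). Csf2ra and Csf1r 1419873_s_at scatter around the grey band, the group means of Csf1r 1419872_at lie just above it (2.83 and 2.90), and 1452416_at of Il6ra is higher with the shRNA in all 5 pairs.

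With 1 probe set for each gene, 1 of the 9 receptor genes was called lower (Kit, adjusted p = 0.00158) and 1 higher (Il6ra) by limma over genes, against 2.98% of all genes called lower and 1.08% called higher. Of all gene calls 73.5% were lower, or 55.4% after quantile normalization and 80.7% with centred arrays. Among genes with a mean log2 level above 5, fitted alone, 13.6% were called lower and 5.80% higher. Kit was called lower there too, and Il6ra was too dim to enter that fit. The median change was 0.14 over the 9 genes and 0.00 over all genes. Over probe sets it was 0.09 for the 15 and 0.01 for all, with 6 of the 15 below 0 and 9 above. Of the 15, 7 had a mean log2 level above 5, and they belonged to Kit, Il3ra, Csf2rb, Csf2rb2 and Csf3r. The 8 dimmer probe sets had mean log2 levels of 2.63 to 4.35.

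**Figure D3:**
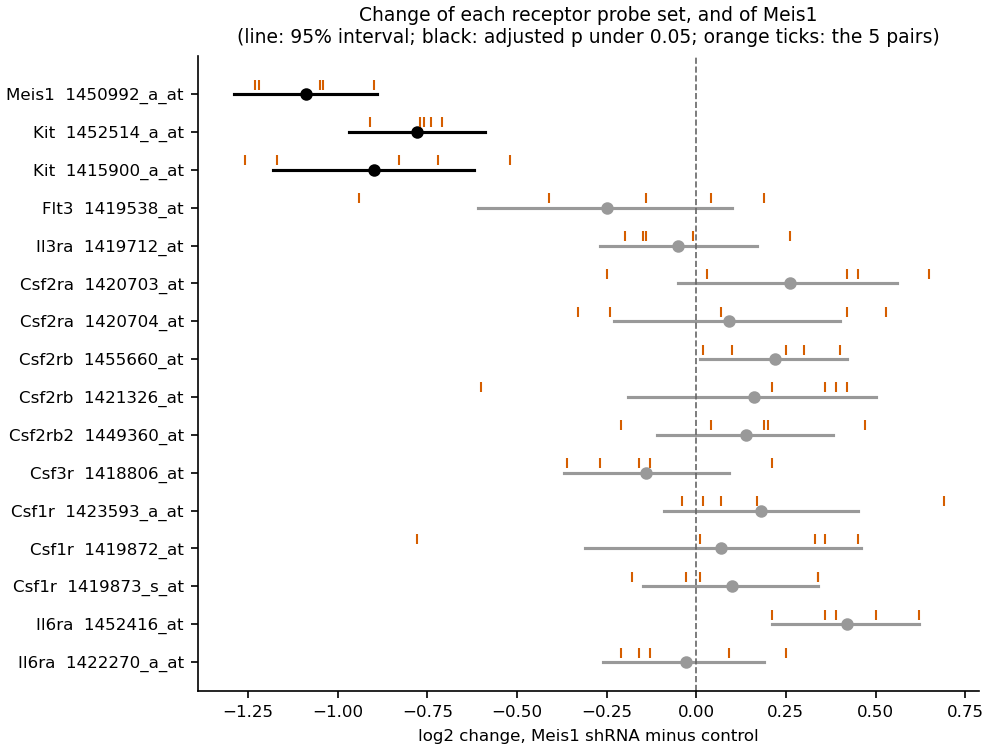
Log2 change (shRNA minus control, horizontal axis) of the main Meis1 probe set and the 15 receptor probe sets, with the 95% interval of the limma fit and the 5 pair differences as orange ticks. Black marks an adjusted p under 0.05, which Meis1 and both Kit probe sets reached, and the intervals of 11 of the 13 others include 0.

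Within each array pair, Kit was set against each of the other receptors. Kit changed more negatively than Il3ra, Csf2ra, Csf2rb, Csf2rb2, Csf3r, Csf1r and Il6ra in 5 of 5 pairs, by means of 0.64 (Csf3r) to 1.19 (Il6ra) on the log2 scale. The exact permutation p was 0.0625 for each, the lowest value 5 pairs can give, or 0.0938 adjusted over 12 comparisons. Kit had already been called lower in these same arrays, so the comparisons describe its change and are no separate support for it. Csf2ra, Csf1r and Il6ra were dim (mean log2 levels of 2.63, 3.73 and 3.60), which limits how far they could fall. Against the shared beta chain Csf2rb the difference was -0.99 ± 0.14 (SD), the most even between pairs. Kit changed less than Meis1 itself by 0.31 ± 0.19 (SD), in 4 of 5 pairs (exact permutation p = 0.125). The deepest Kit difference in 1452514_a_at, -0.91, was in pair 2, which had the smallest Meis1 difference, -0.90. In 1415900_a_at the deepest, -1.26, was in pair 1. These pairs were picked after their values were seen.

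**Figure D4:**
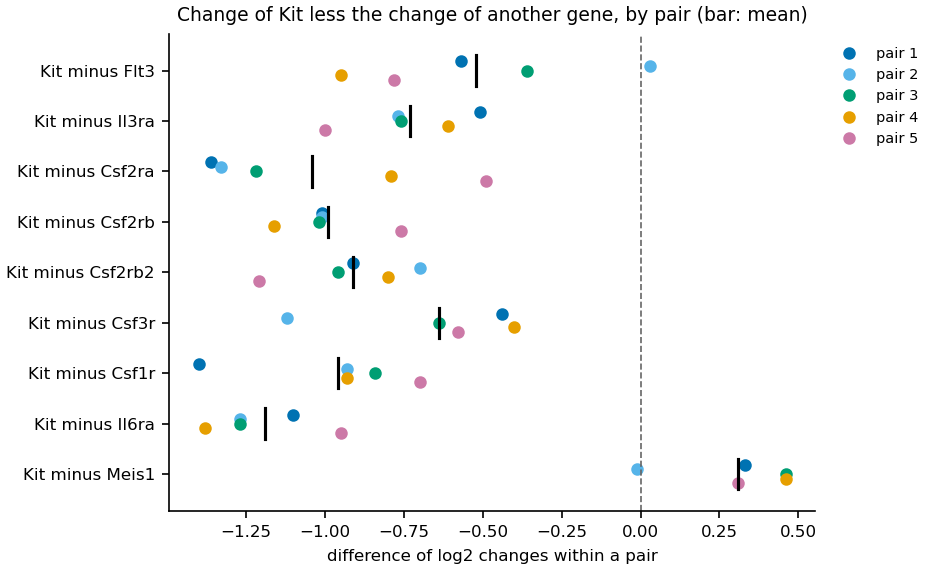
Change of Kit (1452514_a_at) less the change of another gene within each pair (horizontal axis, log2), for the other 8 receptors and Meis1. Points are the 5 pairs and bars the means. All points lie left of 0 for 7 receptors, pair 2 lies at 0.04 for Flt3, and the mean against Meis1 is 0.31 on the right of 0.

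Some receptors also differed between pairs, in both groups alike, and some of these by more than the shRNA changed them. Others followed the pairs weakly or not at all. Control and shRNA levels correlated over the 5 pairs at 0.43 in Il3ra, at -0.32 and 0.14 in Csf2ra and at -0.13 to 0.38 in Csf1r. The mean Kit level of a pair was 2.46-fold higher in pair 5 than in pair 2 in 1452514_a_at, with an SD of 0.51 (log2) between pair means and of 0.06 within pairs. In Csf3r pair 5 was also the highest, 2.55-fold above pair 1, with an SD of 0.53 between and 0.15 within pairs. Csf2rb2 went the other way, with pair 5 the lowest and pair 4 2.60-fold above it (SD 0.53 between and 0.18 within pairs). In Csf2rb (1455660_at) pair 5 was the lowest too, at a 1.72-fold range. In Flt3 the SD was 0.30 between and 0.32 within pairs, so its level did not follow the pairs. What distinguished the pairs is not given in the labels.

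The genes whose log2 level ran most closely with Kit over the 10 arrays, among 5750 others with a mean log2 level above 6, were Hspa13 (Pearson r = 0.976), C730049O14Rik (0.970) and Spcs2 (0.968). For Csf2rb they were Kdm5b (0.970), Lgals9 (0.959) and Id1 (0.952), and for Csf2rb2 Ermp1 (0.967), Pfkl (0.954) and Nedd4 (0.950). These are the highest of 5750 values each, over arrays that are paired and share a normalization, and they describe likeness only.

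Kit also marks mast cells, so their genes were set beside it. Of 12 measured markers of mast cells, basophils and eosinophils, 0 passed in the limma fit over genes (3 reached an unadjusted p under 0.05, and 9 were below 0, with a median change of -0.12). The mast cell genes Cpa3, Cma1 and Fcer1a were near background, at mean log2 levels of 2.43, 1.95 and 1.91 in the controls, beside 1.83 to 2.03 for the Trpn control probe sets. Only Mcpt8, a basophil protease, and Gata2 exceeded 5, at 8.51 and 5.34 in the controls, and changed by -0.45 (adjusted p = 0.0952) and -0.34 (adjusted p = 0.257 by limma). The summed level of the list was 8.58 to 9.54 (log2) in the controls and 8.27 to 8.72 with the shRNA. Mcpt8, by far the brightest gene of the list, weighs most in that sum. The part of the list in the Kit change was not tested. Flt3 marks dendritic cell precursors, and of 10 measured dendritic cell markers 1 was higher (Cd74, 0.82, adjusted p = 0.0493), a call lost with each pair left out (up to 0.152). Of 11 erythroid and megakaryocytic markers 1 was lower (Tfrc, -0.34, adjusted p = 0.0494), lost with each pair left out (up to 0.176) but kept without the block (0.0320) and with its probe sets averaged (-0.66, adjusted p = 0.00680). The Tfrc call was also lost after quantile normalization (0.0541) and with each technical covariate (0.858, 0.678 and 0.617 by limma). Of 13 lymphoid markers 0 were called by limma and 0 reached an unadjusted p under 0.05.

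Around the receptors, 5 lists of ligands and signalling genes held 108 measured genes of 118, and 5 were called, 3 lower and 2 higher. That is 4.63% of them, beside 4.06% of all genes. Their median change was 0.00, as over all genes.

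Of 7 measured ligands, 1 was higher and 0 lower. It was Csf1, the ligand of Csf1r, a dim gene that went from a mean log2 level of 3.79 ± 0.37 to 4.36 ± 0.31 (SD, n = 5), a change of 0.57 (SE 0.12, adjusted p = 0.0350 by limma over genes). Its call was lost when pair 2, 3 or 4 was left out (up to 0.123), and averaging its probe sets gave 0.17. The other 6 ligands, Kitl and Il3 among them, changed by -0.06 to 0.06. None of the 7 exceeded a mean log2 level of 5, so the cells showed no bright transcript for any measured ligand of these receptors. The Flt3 ligand was not among the 7 measured.

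Among 30 measured chains of other cytokine and growth factor receptors, 0 were called by limma, with changes from -0.48 to 0.47 and a median of 0.01. The smallest p belonged to Insr, the insulin receptor (0.47, SE 0.12, adjusted p = 0.0640, or 0.0270 after quantile normalization). An unadjusted p under 0.05 was reached by 7 of the 30, and 12 of the 30 exceeded a mean log2 level of 5.

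Of 37 receptor-proximal adaptors and enzymes, 1 was lower and 0 higher. Ptprc, the phosphatase CD45, changed by -0.35 (SE 0.07, adjusted p = 0.0379 by limma over genes), lower in 5 of 5 pairs. The call was lost with each pair left out (adjusted p 0.0638 to 0.129), after quantile normalization (0.0619) or with its probe sets averaged (-0.17, adjusted p = 0.349).

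Of 10 JAK kinases and STAT factors, 1 was lower and 0 higher. Stat5a, a transcription factor that interleukin 3 and GM-CSF receptors activate, went from a mean log2 level of 5.41 ± 0.30 to 4.23 ± 0.26 (SD, n = 5). In that probe set Stat5a fell 2.26-fold (log2 change -1.17, SE 0.15, adjusted p = 0.00453 by limma over genes), in 5 of 5 pairs, and passed with each pair left out. The change was smaller with its probe sets averaged (-0.79, adjusted p = 0.00634) and with a pseudocount of 16 (-0.75, adjusted p = 0.0156 by limma). Its close paralog Stat5b, named after its value was seen, was brighter, at 7.74 in the controls, and changed by -0.12 (95% interval -0.44 to 0.20, adjusted p = 0.739). Jak2, the kinase bound to the beta chains, also named after its value was seen, changed by 0.39 (adjusted p = 0.0574 by limma).

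Of 24 feedback and target genes of cytokine signalling, 1 was lower and 1 higher. Spred1, an inhibitor of the Ras pathway downstream of Kit, fell 1.74-fold (log2 change -0.80, SE 0.10, adjusted p = 0.00385 by limma over genes), lower in 5 of 5 pairs, and passed with each pair left out. Socs3, a feedback inhibitor of cytokine receptors, changed by 0.62 (SE 0.10, adjusted p = 0.0141), from 4.14 ± 0.67 to 4.76 ± 0.71 (SD, n = 5). Its call was lost when pair 2, 3 or 4 was left out (up to 0.0681) and without the block (0.487). It was also lost with the Socs3 probe sets averaged (0.41, adjusted p = 0.110 by limma). With any of the 3 technical covariates, none of these 5 genes passed, with Stat5a at -0.94, -0.83 and -0.85 and Spred1 at -0.63, -0.72 and -0.57.

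**Figure D5:**
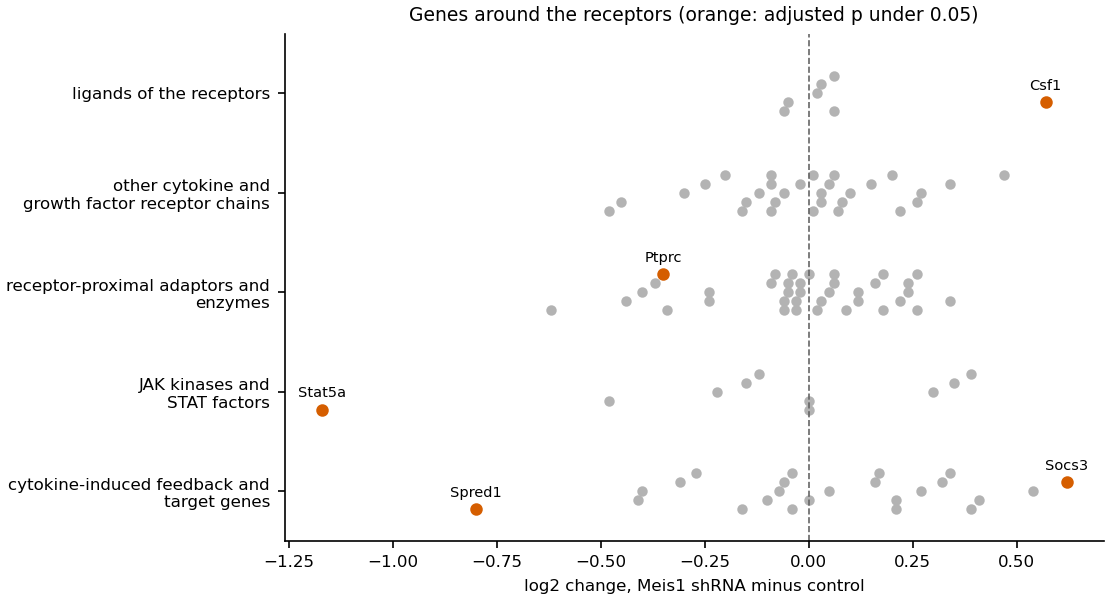
Log2 change (shRNA minus control, horizontal axis) of each measured gene in 5 lists around the receptors, 1 point a gene, spread vertically only for legibility. Orange points passed an adjusted p of 0.05 over all genes. Csf1 and Socs3 lie to the right, Ptprc, Stat5a and Spred1 to the left, and the second list has no orange point.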

How the data were processed

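The authors deposited 1 linear intensity per probe set and array, made with RMA per the submitters' processing notes, with version and settings not given in the sources used here; that the scale is linear was read from the values' range. RMA is known to compress large changes. Intensities were log2-transformed without a pseudocount. Of 45101 probe sets, 64 Affymetrix controls were left out of the fits. Symbols come from the platform annotation (34945 probe sets with 1 symbol, 932 with several, 9160 with none), and each gene took the probe set whose mean over the 10 arrays was highest.

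Groups were compared with limma 3.58.1 in R 4.3.3 (lmFit, eBayes, pair as a fixed block, two-sided, Benjamini-Hochberg over all probe sets or all genes); the code was tested on simulated data. The labels' treatment protocol states that samples of the same number are paired, and deviations of same-numbered samples from their group means correlated at 0.600, 0.462, 0.339, 0.310 and 0.557 over 11215 probe sets, although control 2 correlated best with shRNA 1. Single differences were tested by exact permutation of signs (two-sided) over the 5 pairs. The members and lists were chosen with earlier results of these data known. Named genes were all members, up to 4 called genes of each list (or the 1 with the smallest p where none was called) and the 3 genes most like each member with a mean log2 level above 6. The number of arrays limits the precision. Alternatives changed the block, normalization, moderation, pseudocount, dim filter, probe set rule, covariates and pairs; the covariates for bacterial RNAs were chosen after seeing the data.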

Additional observations from a re-analysis of the deposited data

Results flagged for a closer look

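In the dim Csf1r probe set 1419872_at, control 5 read 13.49 while the other 4 control arrays lay between 5.343 and 6.66. On the log2 scale the gap was 0.76 of the group's range, beyond the limit of Dixon's test for 5 samples (0.710). Control 5 was also the highest control array in the other Csf1r probe sets, at 15.16 and 7.122. It was the 1 group beyond the limit among 34 tested, and chance alone gives about 1 in 20.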

How the results depend on the processing

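Both Kit probe sets were lower under every alternative run, with changes of -0.80 to -0.74 (1452514_a_at) and -1.0 to -0.81 (1415900_a_at) when 1 pair was left out, and 2 probe sets and 1 gene stayed called lower in each of those fits. The Kit calls depended on the replicate block and on leaving out the technical covariates. Without the replicate block the changes were -0.78 and -0.90 with no call, and as a random block the same values had adjusted p of 0.153 and 0.125, so that 0 member probe sets and 0 genes were called. The random block took 1 correlation for all probe sets, 0.08. Kit levels in control and shRNA arrays correlated at 0.99 (1452514_a_at) and 0.87 (1415900_a_at) over the 5 pairs. With a technical covariate beside the block the Kit changes were, for the 3 prime to 5 prime ratio, -0.80 and -1.08, with the poly-A controls -0.75 and -1.08, and with the hybridisation controls -0.74 and -0.84, again with 0 calls. Over all genes these covariate fits called 2, 22 and 16 in total. Flt3 was lower and not called under every alternative run (-0.36 to -0.08 with 1 pair left out).

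Member probe sets called higher went from 0 to 1 (Il6ra) after quantile normalization, with a pseudocount of 16 and without pair 5. Member genes called higher went from 1 to 0 without the block, with the random block, above a mean log2 level of 5, with the mean of probe sets, with each covariate and without pair 1, 2, 3 or 4. Dim or near-zero changes that were never called turned sign. Il3ra was 0.09 after quantile normalization and 0.13, 0.07 and 0.16 with the 3 covariates, in the order above. Csf2ra 1420704_at was then -0.23, -0.16 and -0.34, Csf1r 1419872_at -0.41, -0.43 and -0.41, Csf1r 1419873_s_at -0.10, -0.10 and -0.17, and Csf3r was 0.03 with the ratio. With 1 pair left out Csf2ra 1420704_at ran from -0.02 (without pair 4) to 0.19, Csf1r 1419872_at from -0.02 (without pair 4) to 0.29 and Il6ra 1422270_a_at from -0.10 to 0.01 (without pair 2).

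The lists around the receptors had 0 genes called higher without the block and 5 after quantile normalization, against 2, and 0 to 4 with 1 pair left out (2 to 3 lower). By list, ligands called higher were 0 without the block and 0 to 1 with a pair left out. Other receptor chains called higher were 1 after quantile normalization and 0 to 1 with a pair left out. Adaptors called lower were 0 without the block and after quantile normalization, 2 with centred arrays and 0 to 1 with a pair left out. JAK and STAT genes called higher were 1 after quantile normalization, and those called lower 1 to 2 with a pair left out. Feedback genes called higher were 0 without the block, 2 after quantile normalization and 0 to 2 with a pair left out. The causes of these shifts were not tested. Probe sets near the array medians could hardly show a decrease.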
